A study of Mus musculus with 8 samples.

Results

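AP-1 is a family of dimeric transcription factors, and 10 of its genes were followed here: the FOS subunits Fos, Fosb, Fosl1 and Fosl2, the JUN subunits Jun, Junb and Jund, and the partners Atf3, Maff and Mafk. They were chosen by name, with earlier results of these data known. Every probe whose RefSeq accession belongs to one of them was taken, which gave 11 of the 55681 probes on the array and 10 of 20145 genes with a symbol. The study compared whole CD-1 mouse embryos, an outbred stock, collected on gestational day 9, early in organogenesis. In the hydroxyurea group (4 samples) the dams had received 400 mg/kg of hydroxyurea, an inhibitor of ribonucleotide reductase, by intraperitoneal injection, and in the saline group (4 samples) they had received saline, and embryos of both groups were taken 3 h later. Total RNA was labelled with Cy3 and each sample was hybridised to its own 1-colour Agilent array. The labels do not say which samples share an experiment, a dam or a litter, so p-values measure the spread between these samples, which may in part be technical.

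AP-1 proteins carry a basic region that contacts DNA and a leucine zipper through which they pair. FOS proteins bind DNA as partners of JUN proteins, whereas JUN proteins can also pair with each other and with ATF proteins. Fos is the classic immediate early gene: it is transcribed within minutes of a growth factor or stress signal without new protein synthesis, and its mRNA is short-lived. Small MAF proteins lack an activation domain and pair with FOS and NRF2 proteins.

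Of the 10 genes, 9 had a probe bright enough to be tested, meaning a signal well above background on 4 or more of the 8 arrays. Fos and Fosl2 rose in hydroxyurea embryos, by 2.06 and 1.40 on the log2 scale (4.18-fold and 2.64-fold). The size of the Fos change depends on the treatment of dim signals: Fos was not well above background on 2 of 4 saline arrays, and its difference was 0.70 on the log2 scale with normexp, another background correction. Jun, Junb, Jund, Fosb, Atf3, Maff and Mafk did not pass the test. Thus 2 of 9 tested members were higher (22.2%) and 0 were lower, where 2.76% of all 23174 features were called higher and 3.39% lower at an adjusted p of 0.05 (limma, Benjamini-Hochberg over all features). The median log2 difference over the 9 genes was 0.038, against 0.040 over all features and 0.10 over named genes. The hydroxyurea and saline arrays did not overlap for the same 2 genes, each lying higher in hydroxyurea, as did 7.83% of all features.

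**Figure D1:**
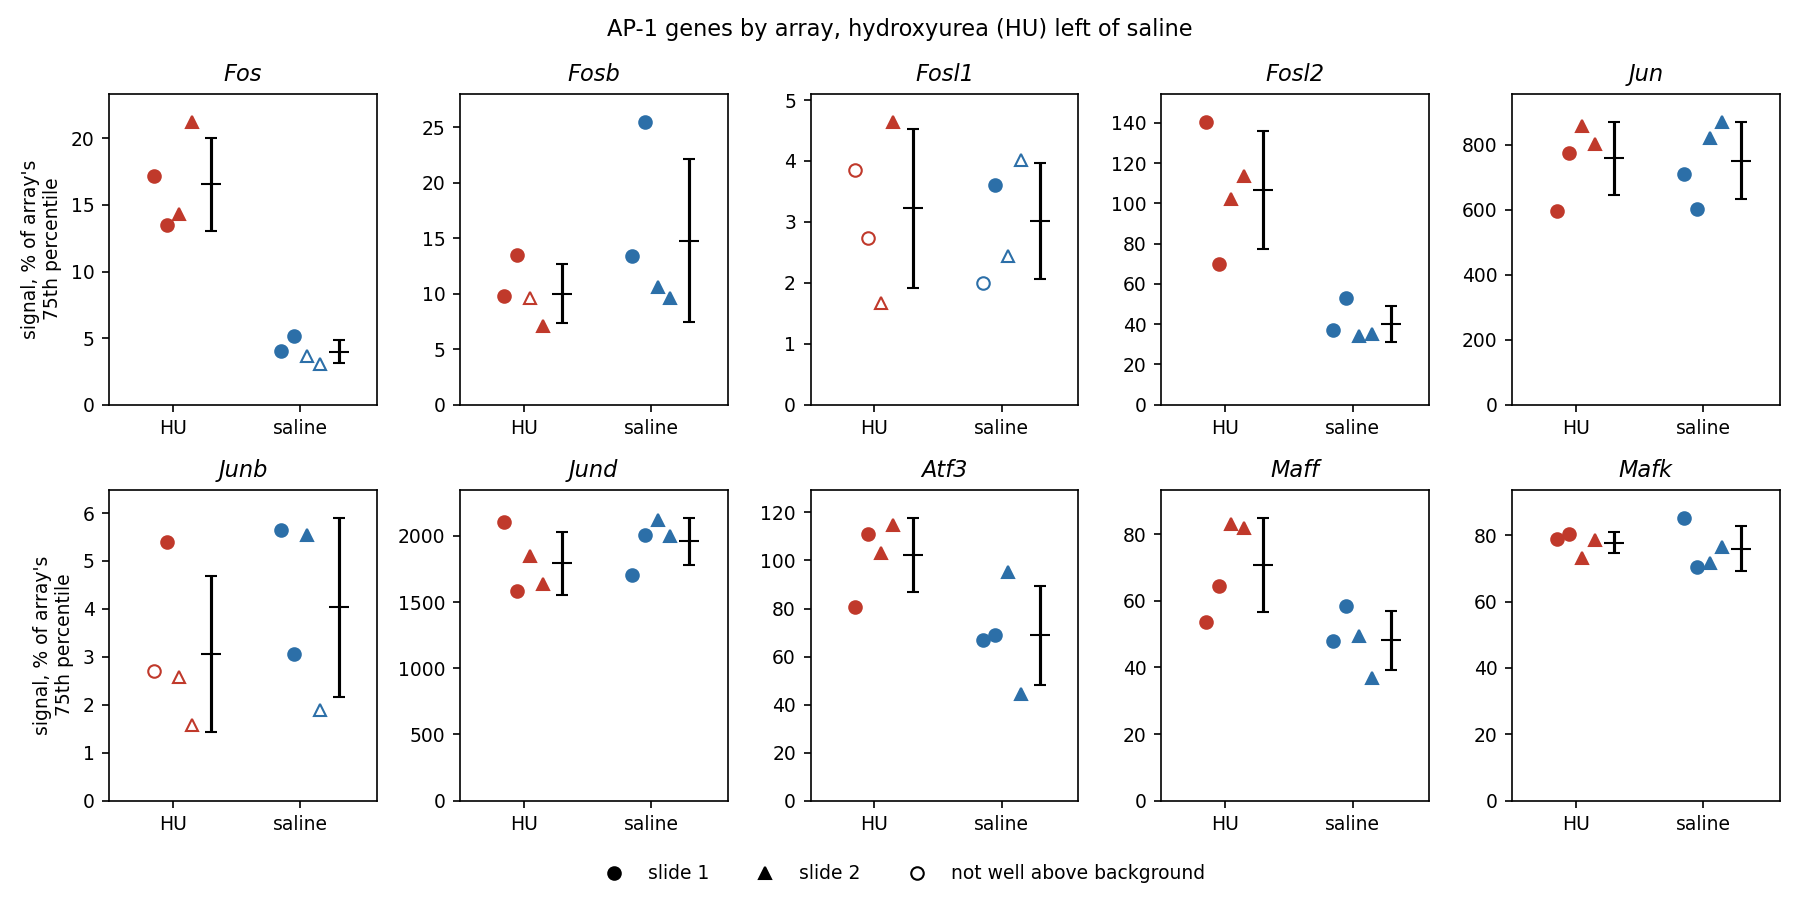
Signal of each AP-1 gene on each array as a percent of that array's 75th percentile (linear axes from 0), hydroxyurea (HU, red) left of saline (blue). Circles are slide 1, triangles slide 2, open symbols arrays not well above background, and black marks the mean ± SD of 4 arrays. The 4 hydroxyurea arrays lie above the 4 saline arrays for Fos (13.5% to 21.2%, against 3.07% to 5.14%) and Fosl2 (70.1% to 140.6%, against 34.3% to 53.1%).

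Values are given as the signal in percent of the 75th percentile of all probes on the same array, a scale that compares arrays for a given probe but not different probes with each other. Fos (NM_010234, chromosome 12) stood at 17.1%, 13.5%, 14.3% and 21.2% on the arrays hydroxyurea 1 to 4, against 3.99%, 5.14%, 3.66% and 3.07% on saline 1 to 4. Every hydroxyurea array lay above every saline array, and the lowest hydroxyurea array was separated from the highest saline array by 1.39 on the log2 scale. The means were 16.6% ± 3.50 in hydroxyurea and 3.97% ± 0.869 in saline (SD, n = 4 each), a log2 difference of 2.06 ± 0.21 (SE, limma, adjusted p = 0.0011, 95% interval 1.59 to 2.53). By p-value Fos ranked 63 among the 23174 features. The gene was dim: it was well above background on 4 of 4 hydroxyurea arrays and on 2 of 4 saline arrays. With normexp, whose offset draws dim signals together, the log2 difference was 0.70 and still passed (adjusted p = 0.019).

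The Fos probe was printed 10 times on each array, which shows the measurement error within an array. Between 8 and 10 spots an array remained after outliers were left out, and the log2 SD among them was 0.081 to 0.31 on hydroxyurea arrays and 0.18 to 0.78 on saline arrays. The array saline 3 had the widest spread, and its highest spot (8.88%) was level with the lowest spot of hydroxyurea 3 (8.87%). No other pair of a hydroxyurea and a saline array had used spots that met. The spots left out as outliers included 1 on saline 2 at 36.9%, 1 on hydroxyurea 2 at 36.3% and 1 on hydroxyurea 3 at 34.6%. With the median of the used spots in place of their mean the Fos difference was 1.98 (adjusted p = 0.0014).

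**Figure D2:**
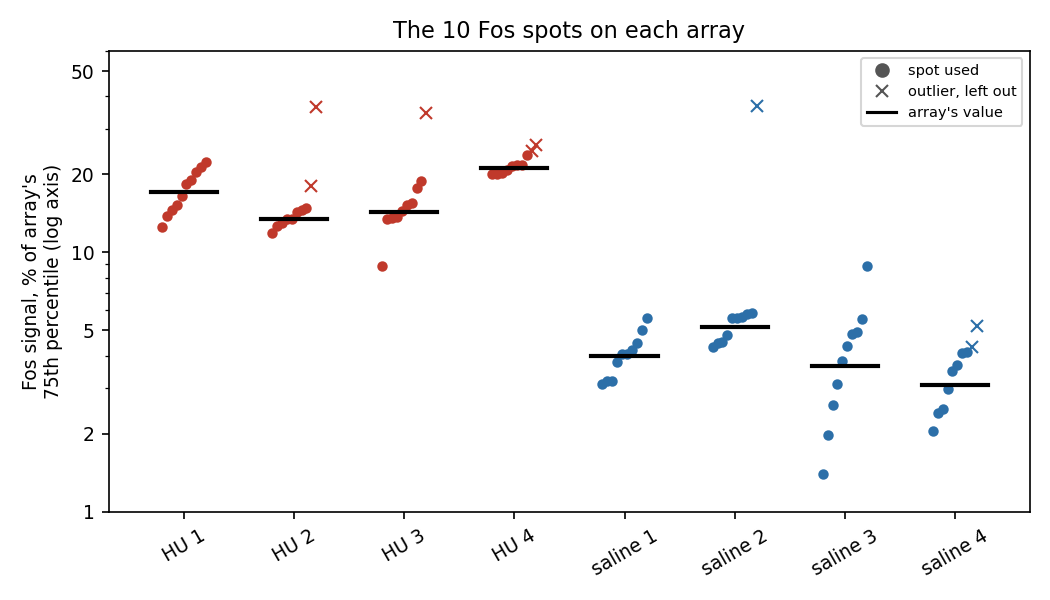
Signal of the 10 Fos spots on each array in percent of the array's 75th percentile (log axis), hydroxyurea (HU) arrays left of saline arrays. Dots are spots used, crosses are outliers left out, and lines are the array's value. The array values run from 13.5% to 21.2% in hydroxyurea and from 3.07% to 5.14% in saline.

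Fosl2 (NM_008037, chromosome 5) encodes FRA-2, a FOS protein without the strong activation domain of FOS. Its bright probe gave 140.6%, 70.1%, 102.4% and 113.6% on hydroxyurea 1 to 4, against 37.3%, 53.1%, 34.3% and 35.02% on saline 1 to 4. The groups did not overlap, though hydroxyurea 2 came within 0.40 on the log2 scale of saline 2, the highest saline array. The means were 107% ± 29.2 in hydroxyurea and 39.9% ± 8.87 in saline (SD, n = 4 each), a log2 difference of 1.40 ± 0.24 (SE, limma, adjusted p = 0.011, 95% interval 0.86 to 1.93). All 8 arrays were well above background for this probe. With normexp the difference was 0.94 (adjusted p = 0.0040). The other Fosl2 probe was well above background on 0 of 8 arrays and was not tested, so the rise rests on a single probe.

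The remaining FOS genes were dim and did not pass. Fosb (NM_008036, chromosome 7), an immediate early gene like Fos, stood at 9.83%, 13.5%, 9.61% and 7.09% on hydroxyurea 1 to 4, against 13.4%, 25.5%, 10.6% and 9.60% on saline 1 to 4. These groups overlapped, with saline 2 far above the rest. The log2 difference was -0.49 ± 0.32 (SE, limma, adjusted p = 0.38), and the 95% interval from -1.21 to 0.23 leaves out a rise of the size seen for Fos or Fosl2. Fosl1 (NM_010235, chromosome 19), which encodes FRA-1, was well above background on 1 of 4 hydroxyurea arrays and 1 of 4 saline arrays and was not tested in the fit. It ranged from 1.67% to 4.64% in hydroxyurea and from 1.99% to 4.01% in saline, and an exact two-sided permutation test of the 8 log2 values gave p = 0.914. At this brightness no statement on Fosl1 is possible beyond the overlap of the groups.

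The promoters of the pair that rose and of Jun, a partner that did not pass, are shown so that the start regions of responding and other genes can be compared. They are RefSeq sequences of build GRCm38.p6 from 250 bases before to 50 after the start: Fos chr12:85473640-85473939 on the plus strand, Fosl2 chr5:32136222-32136521 on the plus strand and Jun chr4:95052173-95052472 on the minus strand. Capitals mark matches, searched on both strands, to the AP-1 site TGANTCA, the CRE-like site TGACNTCA, the TATA box TATAAA and the CArG box bound by serum response factor.
Fos: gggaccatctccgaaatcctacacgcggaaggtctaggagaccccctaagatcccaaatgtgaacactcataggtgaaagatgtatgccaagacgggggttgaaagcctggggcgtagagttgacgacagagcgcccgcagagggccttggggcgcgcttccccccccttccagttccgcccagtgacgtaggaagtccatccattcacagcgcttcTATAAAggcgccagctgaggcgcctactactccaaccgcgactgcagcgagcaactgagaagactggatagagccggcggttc
Fosl2: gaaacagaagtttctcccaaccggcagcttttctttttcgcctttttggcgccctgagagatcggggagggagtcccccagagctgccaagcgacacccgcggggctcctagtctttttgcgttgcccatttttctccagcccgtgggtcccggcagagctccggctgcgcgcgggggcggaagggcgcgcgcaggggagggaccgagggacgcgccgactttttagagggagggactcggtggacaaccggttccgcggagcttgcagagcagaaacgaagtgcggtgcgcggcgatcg
Jun: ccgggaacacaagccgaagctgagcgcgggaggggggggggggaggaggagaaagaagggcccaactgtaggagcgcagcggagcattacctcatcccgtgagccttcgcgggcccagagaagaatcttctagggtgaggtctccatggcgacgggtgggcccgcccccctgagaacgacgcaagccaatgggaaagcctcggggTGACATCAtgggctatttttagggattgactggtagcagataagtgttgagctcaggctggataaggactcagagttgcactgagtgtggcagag
Fos held a TATA box at positions -33 to -28 relative to the start, and no such motif matched in the Fosl2 window. Jun held TGACATCA at positions -45 to -38, and Junb, not shown, held TATAAA at positions 1 to 6. Of all 32851 RefSeq promoters, 13.6% held the TATA motif, 8.83% the CRE-like site, 7.81% the AP-1 site and 1.63% the CArG box. Of the 10 genes 9 had an entry, with 11 promoters in all, and none of the 11 matched the AP-1 site or the CArG box in this window. A match is a description of letters, and elements further upstream lie outside these windows.

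None of the 3 JUN genes passed the test. Jun (NM_010591, chromosome 4), the subunit that JNK kinases phosphorylate, stood at 596.8%, 773.8%, 857.6% and 802.6% on hydroxyurea 1 to 4, against 709.3%, 603.5%, 819.6% and 869.3% on saline 1 to 4. The groups overlapped almost wholly, with means of 757.7% ± 113 in hydroxyurea and 750.4% ± 119 in saline (SD, n = 4 each). The log2 difference was 0.015 ± 0.18 (SE, limma, adjusted p = 0.97), with a 95% interval for the ratio of hydroxyurea to saline from 0.765 to 1.33. Jund (NM_010592, chromosome 8), which encodes a JUN protein present in many resting cells, ran from 1584% to 2107% in hydroxyurea and from 1706% to 2122% in saline. Its difference was -0.13 ± 0.15 (SE, limma, adjusted p = 0.63), and the interval for the ratio was 0.720 to 1.16. For both genes all 8 arrays were well above background, so dimness does not limit these values. Junb (NM_008416, chromosome 8) was dim, well above background on 1 of 4 hydroxyurea arrays and 3 of 4 saline arrays. It stood at 2.71%, 5.39%, 2.58% and 1.58% on hydroxyurea 1 to 4, against 5.65%, 3.05%, 5.54% and 1.89% on saline 1 to 4, and its interval for the ratio, 0.382 to 1.50, is too wide to place it. Its log2 difference was -0.40 ± 0.44 (SE, limma, adjusted p = 0.61).

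Atf3 and Maff had higher means in hydroxyurea but did not pass the test. Atf3 (NM_007498, chromosome 1), which encodes a stress-induced ATF protein that can act as a repressor, stood at 80.5%, 111.1%, 103.1% and 114.8% on hydroxyurea 1 to 4, against 67.0%, 68.8%, 95.1% and 44.4% on saline 1 to 4. The array saline 3 lay above hydroxyurea 1, and the other arrays kept the order of the groups. The log2 difference was 0.61 ± 0.24 (SE, limma, adjusted p = 0.15, 95% interval 0.080 to 1.14). Maff (NM_010755, chromosome 15), a small MAF gene, stood at 53.8%, 64.5%, 83.0% and 81.9% on hydroxyurea 1 to 4, against 47.8%, 58.4%, 49.3% and 36.8% on saline 1 to 4. Here hydroxyurea 1 lay below saline 2. The log2 difference was 0.55 ± 0.20 (SE, limma, adjusted p = 0.13, 95% interval 0.098 to 1.01), with 0.16 on slide 1 and 0.95 on slide 2. The unadjusted p-values of the limma fit were 0.028 for Atf3 and 0.022 for Maff, and neither passed after adjustment over all features. By p-value Atf3 ranked 4381 and Maff 3841 among the 23174 features, so many other features had p-values as low. Of the 3 Maff promoters in the RefSeq table, the windows on chromosome 15 (GRCm38.p6) that start at 79347270 and 79348152 held the CRE-like sites TGACGTCA and TGACATCA, and the Atf3 window held none of the motifs.

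Mafk (NM_010757, chromosome 5), the other small MAF gene, was the steadiest member. It stood at 79.0%, 80.3%, 73.2% and 78.7% on hydroxyurea 1 to 4, against 85.2%, 70.3%, 71.6% and 76.5% on saline 1 to 4. All 4 hydroxyurea arrays lay inside the range of the saline arrays. The log2 difference was 0.038 ± 0.13 (SE, limma, adjusted p = 0.89), and the interval for the ratio was 0.835 to 1.26.

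**Figure D3:**
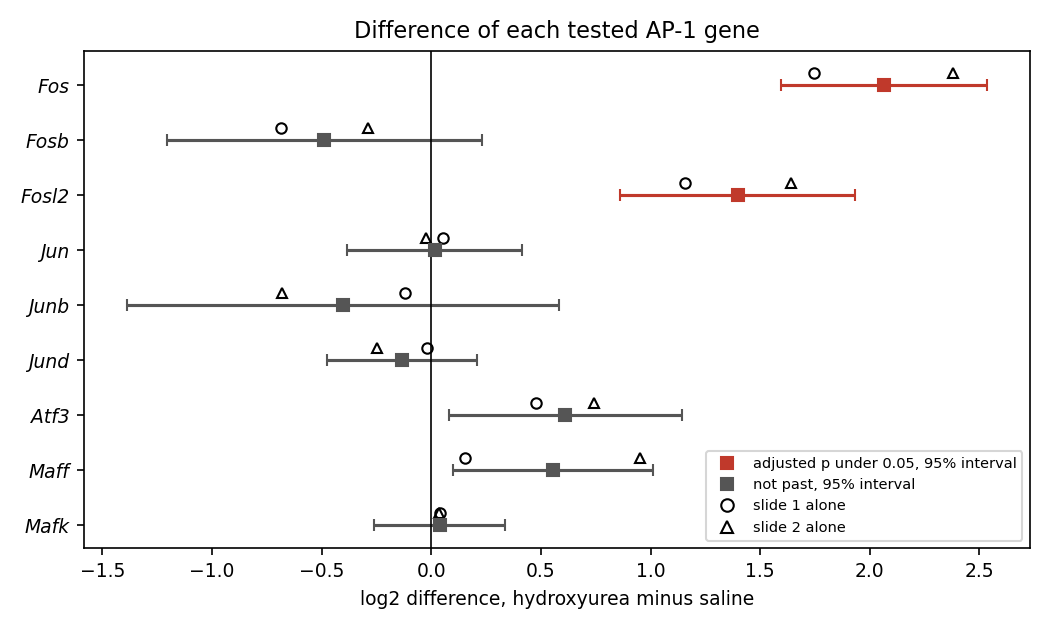
Log2 difference of hydroxyurea minus saline for the 9 tested AP-1 genes, as squares with 95% intervals from the limma fit on 8 arrays, red where the adjusted p is under 0.05. Open circles and triangles are the differences on slide 1 and slide 2 alone. The intervals of Fos (1.59 to 2.53) and Fosl2 (0.86 to 1.93) lie above those of Jun, Jund and Mafk.

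The arrays lay on 2 slides with 2 arrays of each group on each, and slides 1 and 2 were scanned at different pixel sizes. The Fos difference was 1.75 on slide 1 and 2.38 on slide 2, and that of Fosl2 was 1.16 and 1.64. Both passed with the slide as a block (limma, adjusted p = 0.0031 for Fos and 0.021 for Fosl2). Each slide-and-row position held 1 hydroxyurea and 1 saline array, and with these positions as 4 pairs both passed too (limma, adjusted p = 0.011 for Fos and 0.040 for Fosl2). On a slide alone, with 2 arrays a group, neither passed (limma, adjusted p = 0.15 for Fos and 0.50 for Fosl2 on slide 1, and 0.13 for each on slide 2). The interaction of treatment and slide was called for 0 of 23174 features with limma, with 220 at an unadjusted p under 0.05, and gave unadjusted p = 0.17 for Fos, 0.38 for Fosl2 and 0.064 for Maff. Those 220 are far fewer features than chance alone would put under 0.05. The p-values of this fit thus ran high, and its 0 calls do not show that the slides agree. Leaving out any single array kept both calls, with log2 differences of 1.94 to 2.20 for Fos and 1.25 to 1.59 for Fosl2. Across members the array saline 4 was the lowest saline array for 5 of 9 genes, and no hydroxyurea array was highest for more than 3 of 9.

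In the authors' deposited table of changed genes, 2 of the 11 AP-1 probes were listed, those of Fos and Fosl2, where the table lists 2.42% of the array's probes. In the authors' deposited table the log2 values, centred on each probe's median, averaged 0.96 in hydroxyurea and -1.09 in saline for Fos. In the authors' deposited table those of Fosl2 averaged 0.76 in hydroxyurea and -0.63 in saline. The table rests on the same arrays and is no second measurement.

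RNA of whole embryos mixes many cell types, and fewer cells of a type and less RNA per cell cannot be told apart. All 12 markers of embryonic heart, neural tube, mesoderm and primitive blood were well above background on all 8 arrays, and 0 were called. The embryonic globins Hbb-bh1 and Hba-x made up 92.6% to 96.1% of their summed signal (861 to 1494 times the 75th percentile in hydroxyurea, 948 to 1321 times in saline). Without the globins the other 10 summed to 53.8 to 67.1 times in hydroxyurea and 51.6 to 74.9 times in saline. The neural gene Sox2 ran from 289% to 399% in hydroxyurea and from 444% to 460% in saline, without overlap, a log2 difference of -0.51 (limma, adjusted p = 0.076). Pax6 and Pax3 stood at -0.70 and -0.40 and did not pass (limma, adjusted p = 0.11 and 0.14). These were the largest falls of the list, which did not run one way. T stood at 0.35, Tbx6 at 0.17 and Tnnt2 at 0.16, and the other markers lay between -0.27 and -0.0081. The list median was -0.18. Markers of tissues around the embryo differed between arrays. The 7 markers of maternal decidua, most of which embryonic tissue also expresses, summed to 8.34 to 73.2 times the 75th percentile in hydroxyurea and 5.66 to 7.13 times in saline, without overlap. Of these markers 0 were called. On all arrays but hydroxyurea 2 and 3 most of this sum was Hand2 and Bmp2, which stood at 578% and 291% on hydroxyurea 1. The lack of overlap is therefore no sign of decidua on all hydroxyurea arrays. Prl8a2, a prolactin family gene of decidua, stood at 4.57%, 528.1%, 6540% and 0.870% on hydroxyurea 1 to 4, against 0.550%, 11.0%, 24.4% and 1.99% on saline 1 to 4. The high value came from hydroxyurea 3 and, less so, hydroxyurea 2, while Prl3c1, another decidual gene, was well above background on 0 of 8 arrays. Prl3d1, a placental lactogen gene of trophoblast giant cells, was high on the same arrays, at 10.2%, 526.9%, 269.6% and 6.66% on hydroxyurea 1 to 4, against 17.5%, 19.1%, 13.7% and 7.003% on saline 1 to 4. Of the hydroxyurea arrays these 2 had the lowest Fos and Fosl2 signals. Maff and Jun were highest on hydroxyurea 3, Fosb, Junb and Mafk on hydroxyurea 2, Atf3 on hydroxyurea 4 and Jund on hydroxyurea 1. Without hydroxyurea 3 the log2 difference was 2.12 for Fos (limma, adjusted p = 0.0028) and 1.40 for Fosl2 (0.026), and without hydroxyurea 2 it was 2.15 (0.0022) and 1.59 (0.0047). Each of these fits kept the other array with high Prl8a2, and the part of such tissue in the AP-1 values was not tested.

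The 6 endothelial markers, of which 0 were called, summed lower in hydroxyurea (9.73 to 19.0 times the 75th percentile) than in saline (20.3 to 32.6 times), also without overlap. Kdr, a VEGF receptor gene with the largest share of this sum, averaged 859% in hydroxyurea and 1800% in saline (log2 difference -1.16, limma, adjusted p = 0.087). The markers did not run one way: Cdh5 stood at -0.76, Tie1 at -0.19, Pecam1 at -0.055 and Tek at -0.049, while Emcn stood at 0.64, with 152% to 163% in hydroxyurea and 79.6% to 128.9% in saline, without overlap. The list median was -0.12. The 8 yolk sac endoderm markers, of which 0 were called, overlapped, with 16.1 to 87.7 times in hydroxyurea and 19.1 to 255 times in saline, the highest on saline 2. Of the 5 trophoblast markers found on the array Tpbpa was well above background on 0 of 8 arrays. They summed to 9.94 to 36.6 times in hydroxyurea and 5.16 to 34.8 times in saline. Of them Ascl2 was called higher (log2 difference 0.91, limma, adjusted p = 0.030) and Hand1 lower (-1.42, 0.0083), where 6.15% of all features were called. Hand1 averaged 92.1% in hydroxyurea and 243% in saline. On most arrays most of the trophoblast sum was Gcm1, which ran from 181% on saline 2 to 3537% on hydroxyurea 4. Of the 7 leukocyte markers on the array S100a8 and Lyz2 were above background on 0 of 8 arrays, and the sum was 10.04 to 16.3 times in hydroxyurea and 15.9 to 30.2 times in saline. Most of it was Itgam, from 943% on hydroxyurea 1 to 2816% on saline 4, so the sum mostly follows that gene. The part of these marker shifts in the AP-1 results was not tested.

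**Figure D4:**
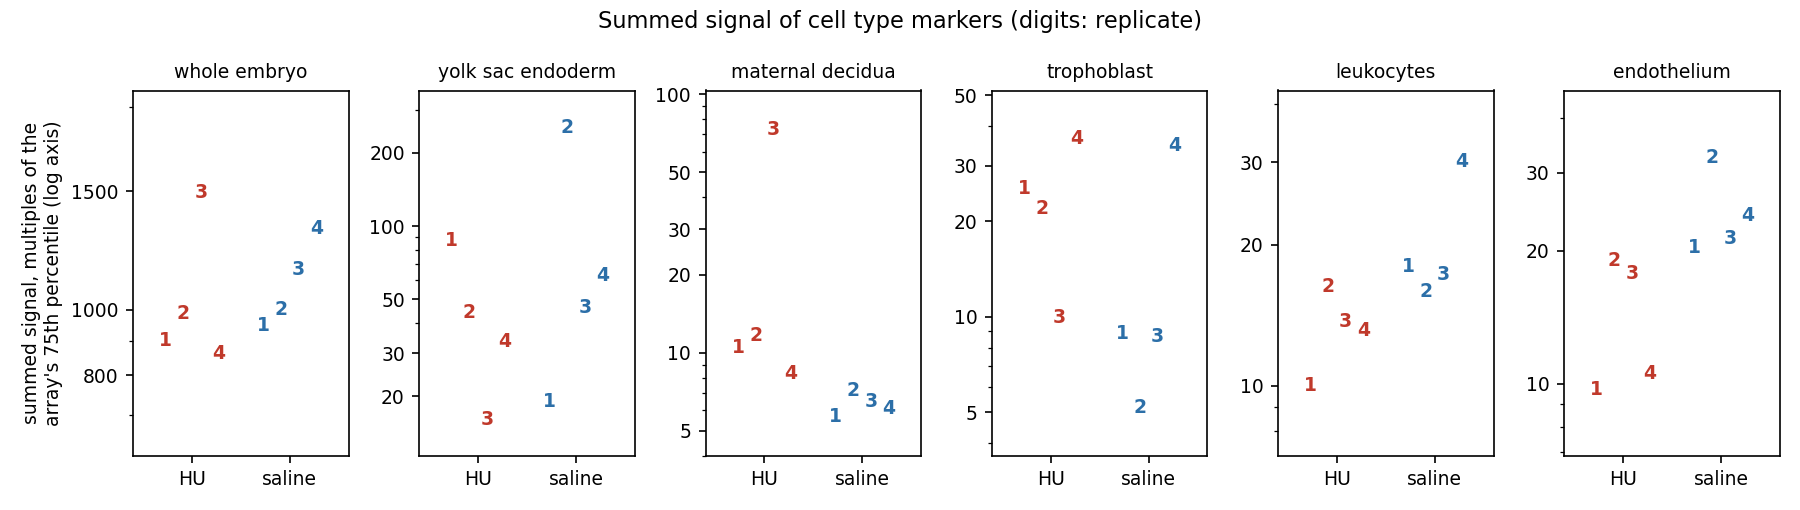
Summed signal of marker genes of 6 cell types or tissues on each array, as multiples of the array's 75th percentile (log axes), hydroxyurea (HU) left of saline. Digits are replicate numbers. The decidual sum of hydroxyurea 3, 73.2, stands above the other decidual sums, and the endothelial sums do not overlap between groups.

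Other bZIP genes and genes that act around AP-1 proteins were described from lists chosen by their known roles. These lists too were chosen with earlier results of these data known. Of 31 tested bZIP genes outside the members, not all of which pair with FOS or JUN, 3 were higher and 1 lower. This was 12.9% called, where 6.15% of all features were called. Their median log2 difference was 0.10, as over all named genes (0.10). Nfe2l2, which encodes NRF2, a partner of small MAF proteins, ran from 727% to 942% in hydroxyurea and from 436% to 477% in saline, a log2 difference of 0.86 ± 0.14 (SE, limma, adjusted p = 0.0086). Tef, a gene of the PAR bZIP group, stood at 1.14 (limma, adjusted p = 0.013) and Batf3, whose product pairs with JUN proteins, at 0.69 (0.042). Nfe2l3, which encodes the related factor NRF3, fell by 0.69 on the log2 scale (limma, adjusted p = 0.028) and was dim, well above background on 2 of 4 hydroxyurea arrays and 4 of 4 saline arrays. With normexp it stood at -0.090 and did not pass. Atf2 and Atf4, further ATF genes, stood at 0.026 and -0.024 and did not pass.

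Of 36 tested kinase genes of the JNK, p38 and ERK cascades 4 were higher and 0 lower (11.1% called, against 6.15% of all features), with a median of 0.086. Mapkapk3, which encodes a kinase activated by p38, changed most among them, with 297% to 513% in hydroxyurea and 62.4% to 80.0% in saline, a log2 difference of 2.45 ± 0.19 (SE, limma, adjusted p = 0.00022). Rps6ka5, which encodes MSK1, a kinase that phosphorylates histone H3 at immediate early genes, stood at 0.93 (limma, adjusted p = 0.0094), and Map3k20, which encodes the stress kinase ZAK, at 1.43 (0.021). With normexp Rps6ka5 stood at 0.56 and Map3k20 at 0.67, and both still passed (limma, adjusted p = 0.041 and 0.029). The JNK gene Mapk8 stood at 0.20 and did not pass. Of 14 tested genes of MAP kinase phosphatases, the GADD45 family and Cops5, 1 passed (7.14%, near the 6.15% of all features), and it was no phosphatase gene. It was Gadd45a, a growth arrest gene, at 0.82 ± 0.16 (SE, limma, adjusted p = 0.020), while Dusp1, an immediate early phosphatase gene, stood at 0.16. Of 13 tested genes of serum response factor and its cofactors 0 passed, and Srf itself stood at 0.46 ± 0.21 (SE, limma, adjusted p = 0.22).

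Of 15 tested genes of deadenylation and of proteins that bind AU-rich elements, which include stabilising and silencing factors as well as decay factors, 1 was higher and 1 lower (13.3% called, against 6.15% of all features). Btg2, whose product promotes deadenylation, stood at 1.39 ± 0.25 (SE, limma, adjusted p = 0.013). Khsrp, which encodes an AU-rich element binding protein, fell by 1.07 on the log2 scale (limma, adjusted p = 0.043). A second Khsrp probe, at -0.54, missed the threshold. Of 23 tested textbook AP-1 targets, from 38 on the array, 3 were higher and 0 lower (13% called, against 6.15% of all features). Their median was 0.34, against 0.040 over all features and 0.10 over named genes. Among them were Ccl2 (1.62), a chemokine gene, and Egfr (1.34), the receptor gene of epidermal growth factor. With normexp Ccl2 stood at 0.77 and Egfr at 0.97, and both still passed (limma, adjusted p = 0.013 and 0.0022). A second Egfr probe stood at -0.11 and missed the threshold. Ccnd1 (0.34), the cyclin D1 gene, and Hmox1 (0.44), of haem breakdown, did not pass.

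Several of these calls did not hold when an array was left out. Without each single array in turn Nfe2l2, Tef, Mapkapk3, Rps6ka5, Btg2, Ccl2 and Egfr kept theirs. Batf3, Gadd45a and Khsrp lost theirs without hydroxyurea 1, hydroxyurea 4 or any saline array, with adjusted p up to 0.12, 0.068 and 0.12 (limma). Nfe2l3 lost its call when any array other than hydroxyurea 2 or saline 4 was left out (limma, adjusted p up to 0.090). Map3k20 lost its call without hydroxyurea 4, saline 2 or saline 3 (limma, adjusted p up to 0.068). Blocks for the place of an array also ended calls. Khsrp did not pass with slide (limma, adjusted p = 0.063), row (0.054) or both (0.082) as blocks. Batf3 did not pass with row (limma, adjusted p = 0.057), both (0.065) or position pairs (0.056), nor did Nfe2l3 with position pairs (0.054). Processing also ended calls. With no filter on dim probes Map3k20 (limma, adjusted p = 0.060), Gadd45a (0.069), Nfe2l3 (0.090), Khsrp (0.11) and Batf3 (0.12) did not pass. Nor did Khsrp (0.055) and Nfe2l3 (0.0505) with quantile scaling. Batf3 (0.067) and Nfe2l3 (0.13) failed with median centring, and Nfe2l3 (0.15) with a variance trend.

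**Figure D5:**
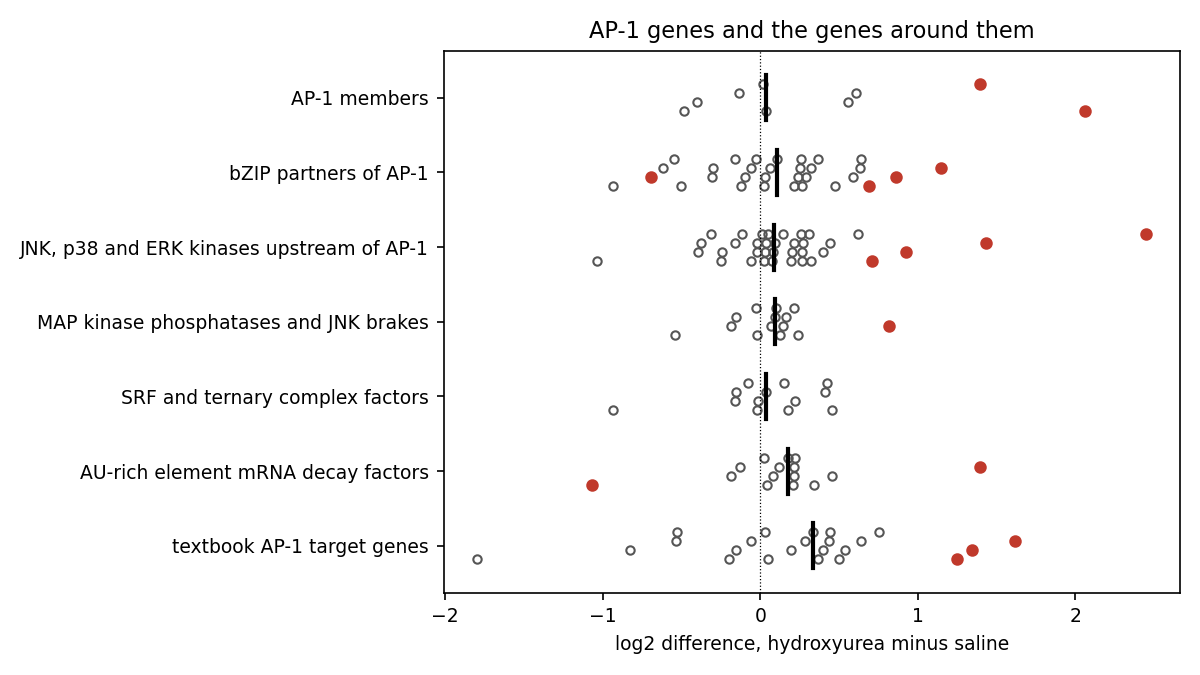
Log2 difference of hydroxyurea minus saline for each tested gene of the AP-1 family and of 6 lists around it, filled red where the adjusted p is under 0.05. Black lines are list medians, from 0.037 for serum response factor and its cofactors to 0.34 for textbook AP-1 targets. The row of bZIP partners also holds other bZIP genes, and the row of phosphatases and JNK brakes holds the GADD45 genes.

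As a description of likeness, the genes whose scaled log2 values over the 8 arrays ran most like those of Fos, among 14649 other named genes, were Zfp750 (Pearson r = 0.991), Fas (0.987), Ltb4r1 (0.986), Pmaip1 (0.986) and Mab21l3 (0.986). All 5 were higher in hydroxyurea, by 2.93 to 3.61 on the log2 scale. The 8 points fall into the 2 groups, so these values mostly restate the difference between them.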

How the data were processed

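Signals of 8 arrays (4 hydroxyurea, 4 saline) were analysed. Per the file headers the scanner output is intensity, read in 1 colour with Agilent Feature Extraction 11.5.1.1, per the submitters' processing notes, background-subtracted and not scaled between arrays. The authors' deposited table holds log2 values. Set against the scanner files they correlated at 0.99998 with the log2 values used here centred per probe, so scale, centring and direction are known, while the authors' test is not given in the sources used here. Its column medians run from -0.51 to 0.41.

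Outlier spots (151 to 315 an array) and control spots were left out, log2 signals of a probe's spots were averaged and each array's 75th percentile (signal 249 to 516) was subtracted. A probe counted as well above background where at least 50% of its spots were, and was kept with at least 4 of 8 such arrays. No spot was saturated, and 48.7% to 62.3% of spots were well above background. RefSeq accessions gave symbols for 26582 probes (table of GRCm38.p6). The brightest probe stood for a gene. Differences over all 23174 features came from limma 3.58.1 (R 4.3.3), two-sided, adjusted by Benjamini-Hochberg, with a threshold of 0.05. The steps were tested on simulated data. The number of arrays limits precision. Slides and rows came from the array identifiers in the labels. Normexp used the median spot signal and an offset of 50.

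Members and lists were chosen with earlier results of these data known. Named were all members, up to 3 called genes a list and direction with the lowest p, and the 5 genes most like Fos; 1 gene that the rule names is not reported here. Genes named as not passing (Atf2, Atf4, Mapk8, Dusp1, Srf, Ccnd1, Hmox1) and marker genes were chosen after their values were seen. Alternatives were normexp, quantile and median scaling, other filters and probe rules, a variance trend, slide and row blocks, single slides and single arrays left out. Slide and row together, their positions as 4 pairs and the median of spots were added after seeing the data.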

Additional observations from a re-analysis of the deposited data

How the results depend on the processing

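The call of Fos and Fosl2 as higher, and of no member as lower, was the same under 12 of the 15 alternatives other than leaving out an array. With probes well above background on all 8 arrays, Fos, Fosb and Junb were no longer tested, 1 of 6 members was higher and their median was 0.30. On slide 1 alone and on slide 2 alone 0 members were higher, where all features gave 56 and 3 calls. Without each single array the count of members higher was 2 to 2, and the median 0.0029 to 0.13. The sign of Jun, which never passed, turned with quantile normalization (-0.044), on slide 2 alone (-0.025), and without single arrays (-0.085 to -0.0074, for 4 of the 8 arrays). Median centring moved the median of all features to 0.158, a shift of 0.118, and the Fos and Fosl2 differences to 2.18 and 1.52. Over all features, where 640 were called higher and 786 lower, no filter on dim probes gave 266 and 345, slide and row as blocks 363 and 485, position pairs 447 and 755, quantile normalization 945 and 902, all probes taken singly 776 and 1321, and leaving out an array 213 to 1971 higher and 310 to 1765 lower, the highest counts without hydroxyurea 2. Dim signals limit Fos in saline, Fosb, Fosl1 and Junb. With slide and row as blocks Fos and Fosl2 had adjusted p of 0.0085 and 0.038 (limma). No paired analysis was possible by dam, litter or experiment because the labels do not say which arrays share one and replicate numbers are names in accession order, so the fit with 4 pairs is a block for array position only. Probes within 50 kb of a member were not looked at because the files used here give no position for probes named by a RefSeq accession.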
